A study of Homo sapiens with 6 samples.

Results

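The oxidative phosphorylation genes are the subunits of the 4 respiratory complexes and of ATP synthase (complex V). They were taken from the deposited gene table by symbol: the 13 mitochondrially encoded mRNAs, the NDUFA, NDUFB, NDUFC, NDUFS and NDUFV genes of complex I, SDHA to SDHD, the UQCR genes with CYC1, 10 COX genes, and the ATP5 genes without the inhibitor ATP5IF1 and the pseudogenes. This gave 91 of 31348 genes, 13 from the mitochondrial genome and 78 from the nucleus. A mean of at least 0.5 FPKM (fragments scaled to transcript length and to library size) was required for testing, which 90 members passed. The exception was ATP5MGL on chromosome 22, with 2 reads in si-Control replicate 1 and 0 in every other library. The symbol rule counts NDUFA4 with complex I, although its protein is now regarded as a complex IV subunit, and it leaves out NDUFAB1.

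The cells were TPC1, a line from human papillary thyroid carcinoma with a RET rearrangement, which serves as a model of 1 tumour only. One group of 3 libraries was transfected with a small interfering RNA (siRNA) against SRPX2 (si-SRPX2, genotype labelled SRPX2 knockdown), and the other 3 libraries with a control siRNA (si-Control, genotype labelled WT). A single siRNA was used, so its effect on SRPX2 and any on other transcripts cannot be told apart. The labels give all 6 samples day 2, DMEM and an adipogenic treatment, whereas the paper describes another medium and another interval and no such treatment, and the titles decided the groups. The replicates were biological repeats by the paper's account, and the p-values set group differences against the spread between these samples.

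The libraries held between 63824315 and 75828542 counted reads. SRPX2 itself, a secreted sushi-repeat protein, had 140, 157 and 263 reads in si-SRPX2 libraries, against 243, 335 and 308 reads in si-Control libraries. The 3 si-SRPX2 libraries were all lower in scaled reads, though not in FPKM, with a log2 fold change of -0.71 ± 0.33 (SE, 95% interval -1.48 to 0.07, edgeR). Of the thyroid follicular markers PAX8 reached 76.9 to 103 FPKM and FOXE1 8.25 to 12.8 FPKM, and these were 2 of 8 such markers with a mean of at least 0.5 FPKM. TG was under 0.172 FPKM, and TSHR, NKX2-1 and SLC5A5 had no entry in the table. Of 6 epithelial markers the keratins KRT8, KRT18 and KRT7 passed, whereas EPCAM stayed under 0.144 FPKM and CDH1 under 0.0283 FPKM. Of the adipocyte markers only PPARG passed (1 of 7), at 2.16 to 3.27 FPKM, and summed adipocyte markers were 2.85 to 3.22 FPKM after si-SRPX2 and 2.26 to 3.44 FPKM after si-Control. One fibroblast marker of 5 (LUM), 1 leukocyte marker of 3 (CD68) and 0 of 3 endothelial markers passed. The leukocyte sum, nearly all of it CD68, was 8.81 to 12.9 FPKM after si-SRPX2 and 4.67 to 8.48 FPKM after si-Control without overlap, PTPRC stayed under 0.00493 FPKM, and the part of this difference in the results below was not tested.

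Oxidative phosphorylation passes electrons from NADH (complex I) and succinate (complex II) through complex III to oxygen at complex IV, and complex V uses the proton gradient so formed to make ATP. Complexes I, III, IV and V mix subunits of both genomes, and complex II is entirely nuclear. The mitochondrial genes are transcribed as long precursors from both strands of a small circular genome that each cell holds in many copies, and all of them except MT-ND6 are read from the same template strand. The nuclear genes lie on many chromosomes, and many of their promoters are known to bind NRF1, ETS factors such as GABP, and YY1. Because bulk RNA was measured, fewer mitochondrial genomes per cell and less RNA from each cannot be told apart, nor can fewer cells of a type and less RNA per cell.

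Of the mitochondrial mRNAs, 2 pairs overlap by more than 1 base and are carried on shared transcripts, which bears on how reads can be assigned to MT-ATP8 and MT-ATP6, the members described most below. The ends and starts of these genes are shown with the shared bases in capitals. They were read from the plus strand of GRCh38, at chrMT:8483-8572 for MT-ATP8, chrMT:8527-8616 for MT-ATP6, chrMT:10737-10766 for MT-ND4L and chrMT:10760-10789 for MT-ND4.
MT-ATP8 end: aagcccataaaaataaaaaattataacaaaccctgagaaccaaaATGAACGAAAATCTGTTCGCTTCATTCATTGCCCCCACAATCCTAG
MT-ATP6 start: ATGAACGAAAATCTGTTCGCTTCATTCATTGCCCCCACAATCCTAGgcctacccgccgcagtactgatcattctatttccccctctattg
MT-ND4L end: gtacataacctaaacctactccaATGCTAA
MT-ND4 start: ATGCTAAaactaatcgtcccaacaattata
MT-ATP8 and MT-ATP6 share 46 bases, MT-ND4L and MT-ND4 share 7 bases, and MT-ATP6 and MT-CO3 share 1 base. A read on shared bases belongs to a transcript that carries both genes, and how the authors' counting divided such reads is not given in the sources used here.

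For the nuclear members, RefSeq (GRCh38.p14) gave a promoter of 250 bases before and 50 bases after the start for 63 of 78. The motif that NRF1 binds, GCGCA and GCGC with any 1 base between them, was searched on both strands and lay in 16 of these 63 promoters (25.4%), against 6.28% of all 27305 promoters. The ETS motif CCGGAAGT lay in 10 (15.9%, against 4.44%), and the YY1 motif AAGATGGCG in 8 (12.7%, against 1.85%). At least 1 of the motifs was present in 30 (47.6%, against 11.5%). The 150 bases before the start are shown for 3 members with the NRF1 motif that are described below, 1 each of complexes II, III and V, with the motif in capitals. They lie at chr11:112086723-112086872 (plus strand) for SDHD, chr3:48609647-48609796 (minus strand) for UQCRC1 and chr10:7788027-7788176 (plus strand) for ATP5F1C.
SDHD: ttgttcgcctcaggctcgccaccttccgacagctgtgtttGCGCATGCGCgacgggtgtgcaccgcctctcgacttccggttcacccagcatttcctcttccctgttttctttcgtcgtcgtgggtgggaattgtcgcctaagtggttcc
UQCRC1: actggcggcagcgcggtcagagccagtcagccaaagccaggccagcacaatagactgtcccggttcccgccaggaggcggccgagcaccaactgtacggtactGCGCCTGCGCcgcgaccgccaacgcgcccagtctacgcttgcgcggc
ATP5F1C: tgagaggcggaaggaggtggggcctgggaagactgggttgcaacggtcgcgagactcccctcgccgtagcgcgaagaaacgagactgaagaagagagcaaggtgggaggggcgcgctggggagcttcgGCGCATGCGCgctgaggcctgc
The motif began 110 bases before the start in SDHD, 47 bases in UQCRC1 and 22 bases in ATP5F1C. A match to these letters is a description of the sequence and not a measured binding site.

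Per length, the transcripts of the mitochondrial genome were far more abundant than those of the nuclear genes. Mean levels over the 6 libraries had a median of 3414 FPKM for the 13 mitochondrial members and 24.1 FPKM for the 77 tested nuclear members, and the ranges did not overlap. The highest mitochondrial level was that of MT-CO1, the catalytic subunit of complex IV, at 5834 FPKM. The lowest was MT-ND6, the single member on the other strand, at 910 FPKM. Whether the counting used strand is not given, so reads counted for MT-ND6 may include some from the opposite strand. MT-ATP8 came next to MT-CO1 at 5621 FPKM and stood above MT-ATP6 at 4025 FPKM, although both lie on the same mRNA. The genes of the other overlapping pair lay closer together, with MT-ND4L at 3785 FPKM and MT-ND4 at 3456 FPKM.

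Nuclear levels ranged between 3.65 FPKM for NDUFV3 and 218 FPKM for ATP5F1B, the catalytic beta subunit of ATP synthase. Next to ATP5F1B was COX8A, a small structural subunit of complex IV, at 193 FPKM. NDUFS5 had 115 FPKM, UQCRH 91.3 FPKM, COX6A1 79.5 FPKM, COX7C 76.1 FPKM and NDUFA1 72.9 FPKM, all of them short accessory subunits. The 4 genes of complex II lay closest together, between 20.3 FPKM for SDHA and 23.5 FPKM for SDHD. The 3 genes that encode the same mature c subunit of the ATP synthase rotor had 34.3 FPKM (ATP5MC2), 23.6 FPKM (ATP5MC3) and 22.1 FPKM (ATP5MC1). ATP5MC3 ranged between 19.2 and 27.2 FPKM after si-SRPX2 and between 18.5 and 29.1 FPKM after si-Control. ATP5MC1 ranged between 17.4 and 26.3 FPKM after si-SRPX2 and between 16.6 and 28.3 FPKM after si-Control. The ranges of these neighbours overlapped, although ATP5MC3 was above ATP5MC1 in FPKM in every library.

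**Figure D1:**
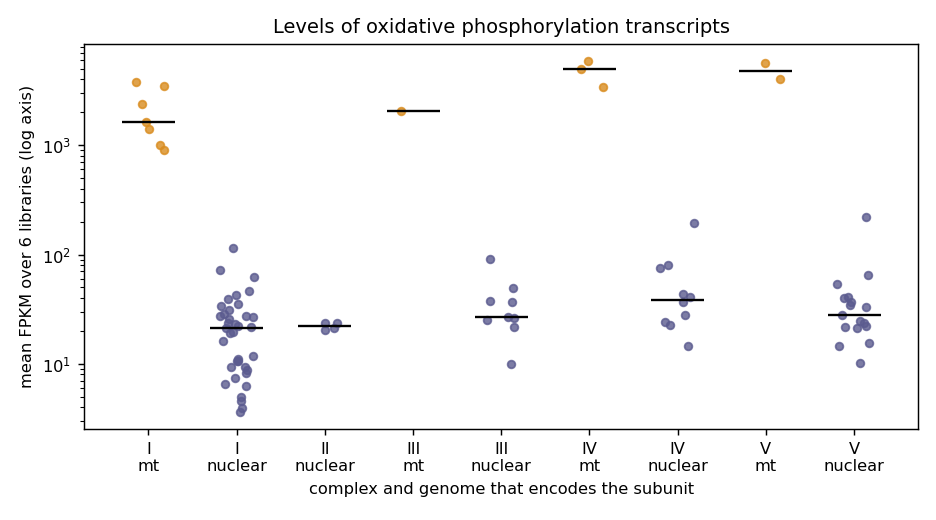
Mean level over 6 libraries in FPKM (log axis) of each tested oxidative phosphorylation gene, by complex and by the genome that encodes it. Points are genes and lines are medians. The mitochondrial members lie between 910 and 5834 FPKM, all above the highest nuclear member at 218 FPKM.

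The comparison of si-SRPX2 with si-Control asked which transcripts differ after SRPX2 is depleted. Reads were scaled by the trimmed mean of M-values (TMM) to CPM (reads relative to library size) and tested over 13317 genes with edgeR. No oxidative phosphorylation gene passed an adjusted p of 0.05, in either direction, and neither did any other gene (0.0% of those tested). At an unadjusted p under 0.05 there were 0 members of 90, beside 66 genes in all (0.496%). DESeq2 called 3 genes and no member. The smallest unadjusted p among the members was that of MT-ATP8.

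The libraries of the same replicate number deviated together, so the number was also fitted as a block. The p-values of that fit rest on the spread left after the number is taken out. With the block 6 of all genes (0.0451%) and 0 members passed an adjusted p of 0.05. At an unadjusted p under 0.05 the block gave 14 members lower after si-SRPX2 (15.6%), beside 4.89% of all genes, and 0 members higher, beside 4.32%. These were MT-ND3, MT-ATP8 and MT-ATP6 from the mitochondrial genome, and NDUFA2, NDUFS1, NDUFC2, NDUFB2, SDHD, SDHB, UQCRC1, COX7C, COX7A2, ATP5MG and ATP5PO from the nucleus. Their lowest adjusted p was 0.439 (edgeR with the block).

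The differences were small and mostly of one direction. The log2 fold change was below 0 in 79 of 90 members (87.8%), beside 52.1% of all tested genes, and its median was -0.10, beside -0.01. The lowest was -0.29 (MT-ND3). All 13 mitochondrial members were below 0 in this fit, 12 with upper quartile scaling or with the block (MT-ND5 came to 0.00011 and 0.0094), and 11 with limma on log2(FPKM + 1). The count was 8 without si-SRPX2 replicate 2 and 6 without si-Control replicate 1, which leaves the replicate numbers unbalanced. With the block kept, it was 11, 12 and 13 without both libraries of number 1, 2 or 3. Of the nuclear members 66 were below 0 and 11 above, with 65 and 12 under upper quartile scaling and 58 and 19 with limma on log2(FPKM + 1). Both genomes had a median of -0.10. Without the block, the median standard error of a member was 0.14, larger than the size of the median difference. With the block it was 0.07, beside a median log2 fold change of -0.09, and no member passed an adjusted p of 0.05. All 90 signs were as given here when the scaling was taken from nuclear genes only or from DESeq2 size factors.

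**Figure D2:**
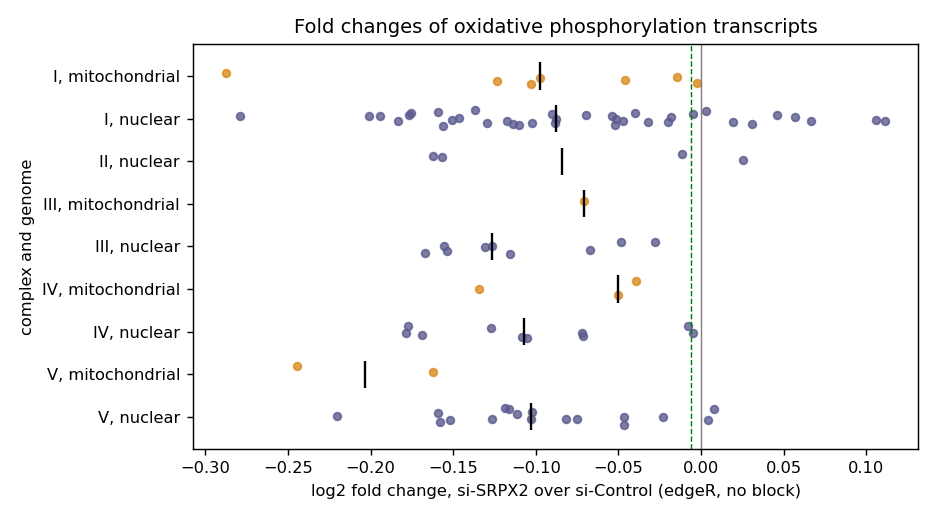
Log2 fold change of each tested member, si-SRPX2 over si-Control (edgeR without the block), by complex and genome. Points are genes, short black lines are medians of each set, and the dashed line is the median of all tested genes at -0.01. Most points lie left of 0, the lowest at -0.29, and with upper quartile scaling MT-ND5 came to lie above 0.

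The medians depended on single libraries in fits without the block, where leaving out a library also leaves the replicate numbers unbalanced. The mitochondrial median was 0.02 without si-Control replicate 1, -0.05 without si-SRPX2 replicate 2, -0.17 without si-SRPX2 replicate 1 and -0.19 without si-Control replicate 2. The nuclear median was -0.04 without si-Control replicate 1 and -0.06 without si-SRPX2 replicate 3, and -0.15 without si-SRPX2 replicate 2 or without si-Control replicate 3. With both libraries of number 1, 2 or 3 left out and the block kept, the mitochondrial medians were -0.05, -0.14 and -0.07. The nuclear medians were then -0.01, -0.12 and -0.12.

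Taken within the replicate numbers, the difference was mainly one of number 1. In number 1, 84 of 90 members (93.3%) were lower in the si-SRPX2 library than in the si-Control library, beside 49.9% of all genes. In number 2 this held for 60 (66.7%, beside 52.8%) and in number 3 for 56 (62.2%, beside 49.7%). The mitochondrial medians of the log2 differences were -0.18, -0.04 and -0.07 in numbers 1, 2 and 3, and the nuclear medians -0.22, -0.05 and -0.03. The medians of all genes lay between -0.01 and 0.00 in each number.

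In 35 of 90 members (38.9%) the si-SRPX2 library was lower in each of the 3 numbers, beside 16.9% of all genes. In numbers 2 and 3 alone, 37 members (41.1%) were lower in both, beside 27.1% of all genes. Of these 7 were mitochondrial and 30 nuclear.

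**Figure D3:**
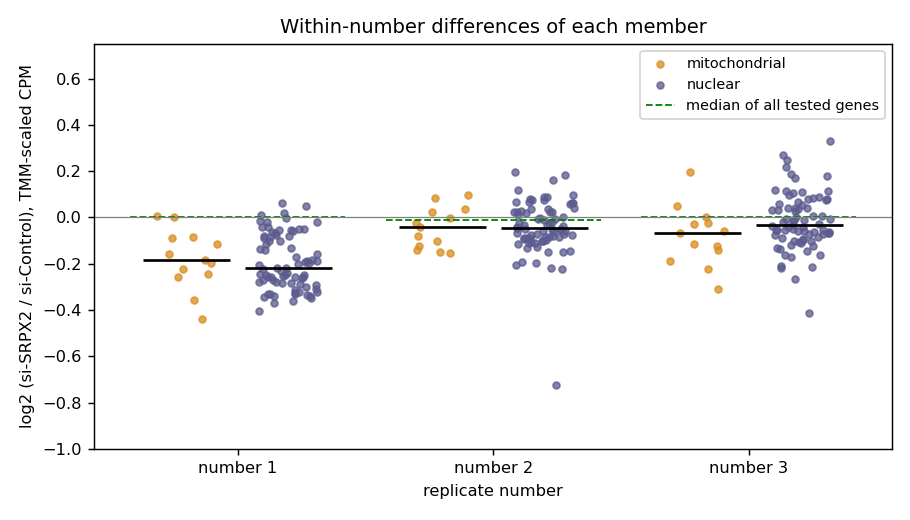
Log2 difference of TMM-scaled CPM between the si-SRPX2 and the si-Control library of the same replicate number, for each tested member. Points are genes, black lines are medians of the mitochondrial and nuclear members, and dashed lines are medians of all tested genes. The medians are -0.18 and -0.22 in number 1 and between -0.03 and -0.07 in numbers 2 and 3.

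Among the mitochondrial members, MT-ATP8, a small subunit of the membrane part of ATP synthase, was the 1 gene whose groups did not overlap in CPM. It had 1225, 1149 and 1207 CPM after si-SRPX2, against 1567, 1265 and 1410 CPM after si-Control. Each si-SRPX2 library lay below each si-Control library, and replicate 2 was the lowest of its group in both. The log2 fold change was -0.24 ± 0.13 (SE, 95% interval -0.55 to 0.06), and -0.24 with the block (edgeR adjusted p = 0.439). DESeq2 with the block, an alternative chosen after seeing the data, called it at the same log2 fold change (adjusted p = 0.0451).

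MT-ATP6, the proton channel subunit read from the same mRNA, had 2982, 2681 and 3031 CPM after si-SRPX2, against 3568, 2984 and 3177 CPM after si-Control. The si-SRPX2 library was lower in each number, and the groups overlapped in CPM but not in FPKM. Its log2 fold change was -0.16 ± 0.13 (SE, with the block edgeR adjusted p = 0.536). The ratio of MT-ATP8 to MT-ATP6 in FPKM was 1.35, 1.41 and 1.31 after si-SRPX2, against 1.45, 1.40 and 1.46 after si-Control. The ratio overlapped between the groups through number 2.

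MT-ND3, a membrane subunit of complex I, had the lowest log2 fold change of all members, -0.29 ± 0.20 (SE, 95% interval -0.77 to 0.20). It had 531, 432 and 517 CPM after si-SRPX2, against 721, 444 and 641 CPM after si-Control. Both libraries of number 2 were low, so the groups overlapped, and a two-sided exact permutation test of CPM gave p = 0.3, where 3 against 3 allow no less than 0.1. With both libraries of number 2 left out and the block kept, MT-ND3 was called, at a log2 fold change of -0.38 (edgeR adjusted p = 0.0495). This setting, chosen after seeing the data, drops the number in which MT-ND3 differed least (-0.04, against -0.44 and -0.31 on the log2 scale). It called 79 of 13317 genes, against 6 with the block and all libraries.

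The other complex I members of this genome differed less. The log2 fold change was -0.12 for MT-ND6, -0.10 for MT-ND4 and for MT-ND4L, -0.05 for MT-ND1, -0.01 for MT-ND2 and -0.00 for MT-ND5, each with a standard error between 0.12 and 0.19. MT-ND5, which lies at the far end of the proton-pumping arm, had 2326, 1823 and 1999 CPM after si-SRPX2, against 2522, 1707 and 1931 CPM after si-Control. It was lower in number 1 and higher in numbers 2 and 3. MT-CYB, the cytochrome b of complex III, had 2698, 2388 and 2650 CPM after si-SRPX2, against 2866, 2388 and 2870 CPM after si-Control, a log2 fold change of -0.07. The number 2 libraries were level and the other numbers lower after si-SRPX2.

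The complex IV core subunits had log2 fold changes of -0.13 (MT-CO2), -0.05 (MT-CO1) and -0.04 (MT-CO3). MT-CO1 had 10316, 8021 and 11394 CPM after si-SRPX2, against 10928, 8479 and 11383 CPM after si-Control. Both number 2 libraries were the lowest of their group and the groups overlapped almost wholly. MT-CO3 was lower in numbers 1 and 2 and higher in number 3, by 0.20 on the log2 scale.

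**Figure D4:**
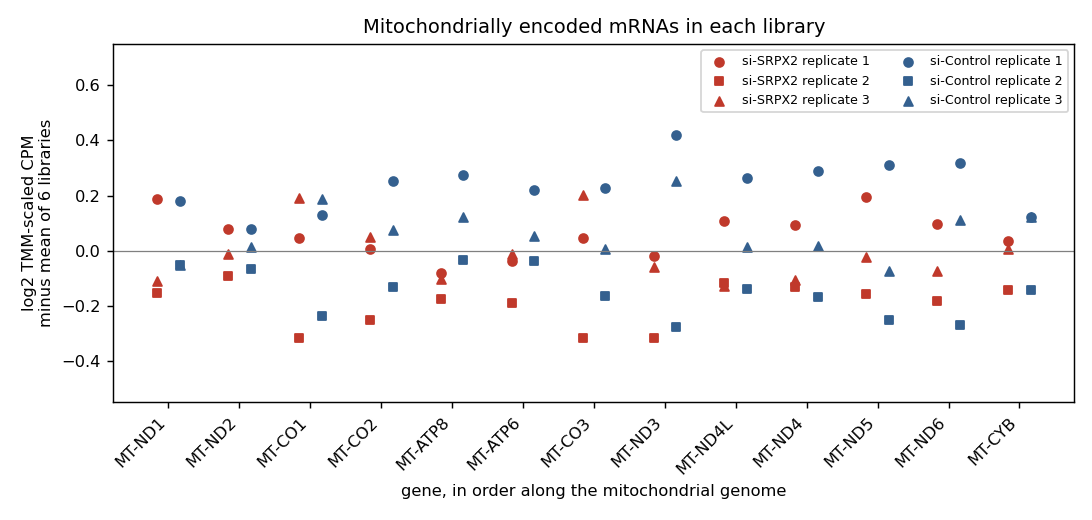
Level of each mitochondrially encoded mRNA in each library, as log2 TMM-scaled CPM minus the mean of the 6 libraries, with genes in order along the mitochondrial genome. Red marks si-SRPX2, blue si-Control, and circles, squares and triangles replicates 1, 2 and 3. The squares of replicate 2 lie low in both groups, and MT-ATP8 is the 1 gene whose groups do not overlap.

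The nuclear members of complex I, which oxidises NADH, had a median log2 fold change of -0.09, with 29 of 37 below 0. NDUFA2, an accessory subunit of the matrix arm, had the smallest p of these without the block. With the block NDUFC2 (edgeR adjusted p = 0.476) and NDUFS1 (adjusted p = 0.482) stood before NDUFA2 (adjusted p = 0.527). It had 32.1, 30.3 and 28.1 CPM after si-SRPX2, against 36.7, 35.3 and 31.7 CPM after si-Control, and the si-SRPX2 library was lower in each number by 0.17 to 0.22 on the log2 scale. The ranges overlapped only between si-SRPX2 replicate 1 and si-Control replicate 3. NDUFA2 overlaps the genes TMCO6 and IK on the other strand, and whether the counting used strand is not given in the sources used here.

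NDUFS5 and NDUFA1 were the most abundant complex I transcripts of the nucleus. NDUFS5 had 65.1, 68.6 and 70.2 CPM after si-SRPX2, against 81.6, 65.7 and 73.4 CPM after si-Control (log2 fold change -0.11 ± 0.12, SE). NDUFA1 had 32.9, 32.1 and 31.8 CPM after si-SRPX2, against 39.1, 32.1 and 38.3 CPM after si-Control (-0.18 ± 0.13, SE). In both genes number 2 showed no lower level after si-SRPX2 than after si-Control.

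NDUFB1 and NDUFB5, both accessory subunits of the membrane arm, had groups apart in CPM and lower after si-SRPX2. NDUFB1 had 22.3, 22.4 and 22.2 CPM after si-SRPX2, against 26.4, 22.5 and 25.8 CPM after si-Control, so that number 2 differed by only -0.01 on the log2 scale. The difference of NDUFB5 was -0.05 ± 0.11 (SE), and its groups overlapped in FPKM.

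Over all complexes and both genomes, 7 members had groups apart in CPM and lower after si-SRPX2 (7.78%), beside 1.65% of all genes. The 7 were MT-ATP8, NDUFB1, NDUFB5, COX7C, ATP5MG, ATP5F1A and ATP5PD. In FPKM the groups of NDUFB5, ATP5F1A and ATP5PD overlapped. None of the 7 passed the test across genes in edgeR, with or without the block, and MT-ATP8 passed with DESeq2 and the block.

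Complex II (succinate dehydrogenase), which also belongs to the citric acid cycle, had a median of -0.08 with 3 of 4 members below 0. SDHD, a membrane anchor, had 64.2, 78.3 and 65.0 CPM after si-SRPX2, against 80.8, 83.2 and 68.2 CPM after si-Control. SDHB, the iron-sulfur subunit, had 63.1, 66.5 and 43.4 CPM after si-SRPX2, against 69.2, 75.95 and 47.7 CPM after si-Control. In both genes each number was lower after si-SRPX2, while replicate 3 lay low in both groups of SDHB, which widened its spread. The log2 fold change was -0.16 for each, with a standard error of 0.14 for SDHD and 0.24 for SDHB without the block, and of 0.07 and 0.06 with it (edgeR adjusted p = 0.536 for SDHD and adjusted p = 0.519 for SDHB with the block). SDHA, the flavoprotein, was at 0.03 and SDHC, the other anchor, at -0.01.

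Complex III, which hands electrons to cytochrome c, had all 9 nuclear members below 0, with a median of -0.13. UQCRC1, a core subunit, had 172.6, 169.6 and 160.2 CPM after si-SRPX2, against 196.4, 194.2 and 168.9 CPM after si-Control. The si-SRPX2 library was lower in each number and the groups overlapped through si-Control replicate 3 (log2 fold change -0.16 ± 0.11, SE, with the block edgeR adjusted p = 0.503). UQCRH, the hinge protein at the cytochrome c1 side, had 129.1, 145.3 and 114.6 CPM after si-SRPX2, against 163.6, 149.6 and 119.6 CPM after si-Control (-0.15 ± 0.16, SE). CYC1, cytochrome c1 itself, was at -0.13 ± 0.24 (SE).

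Complex IV, which reduces oxygen, had all 10 nuclear members below 0 without the block, with a median of -0.11, although COX8A turned to 0.0051 with the block. COX7C had 156.5, 157.8 and 157.9 CPM after si-SRPX2, against 194.5, 167.9 and 171.9 CPM after si-Control, and its log2 fold change was -0.18 ± 0.11 (SE, with the block edgeR adjusted p = 0.501). The si-SRPX2 libraries lay within 1.5 CPM of each other and all below the si-Control libraries. COX8A, the most abundant nuclear member of this complex, had 108.3, 117.9 and 93.2 CPM after si-SRPX2, against 118.9, 119.4 and 82.8 CPM after si-Control (-0.01 ± 0.18, SE). COX6A1 had 121.9, 110.8 and 111.8 CPM after si-SRPX2, against 144.8, 122.8 and 103.7 CPM after si-Control (-0.11 ± 0.15, SE). Both were higher after si-SRPX2 in number 3 and lower in the other numbers.

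For complex V, 15 of 17 tested nuclear members were below 0, with a median of -0.10. ATP5MG, a membrane subunit, had 110.4, 115.1 and 118.8 CPM after si-SRPX2, against 134.6, 124.2 and 125.9 CPM after si-Control (-0.16 ± 0.10, SE, with the block edgeR adjusted p = 0.522). The alpha subunit ATP5F1A had 633, 613 and 626 CPM after si-SRPX2, against 771, 656 and 652 CPM after si-Control (-0.15 ± 0.12, SE). ATP5PD, of the peripheral stalk, was at -0.13 ± 0.10 (SE). Groups were apart in CPM in these 3 genes, and the largest difference lay in number 1 in each. In FPKM the groups of ATP5F1A and ATP5PD overlapped.

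The catalytic beta subunit ATP5F1B had 512, 615 and 482 CPM after si-SRPX2, against 544, 646 and 472 CPM after si-Control (-0.05 ± 0.17, SE). ATP5F1C, the gamma subunit that turns inside the catalytic head, had 169.7, 172.0 and 141.7 CPM after si-SRPX2, against 202.0, 177.8 and 145.1 CPM after si-Control (-0.12 ± 0.16, SE). Both followed the replicate number more closely than the siRNA, and number 3 had the lowest library of each group. Of the c subunit genes ATP5MC3 and ATP5MC1 were at -0.11 ± 0.20 and -0.10 ± 0.22 (SE) and ATP5MC2 at 0.01 ± 0.14 (SE). ATP5MC3 and ATP5MC1 were highest in the number 2 libraries of both groups and ATP5MC2 was lowest there.

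The mean proportion of mitochondrial to nuclear transcripts was close in both groups. The ratio of summed FPKM was 16.7, 13.1 and 17.4 after si-SRPX2, against 16.5, 13.4 and 18.01 after si-Control, which gave 15.7 ± 2.35 and 15.98 ± 2.37 (SD, n = 3 each). The mean difference of the log2 ratio was -0.02, with 0.02, -0.03 and -0.05 within numbers 1, 2 and 3. Leaving out 1 library, which leaves the replicate numbers unbalanced, moved it to between -0.14 (without si-Control replicate 2) and 0.11 (without si-SRPX2 replicate 2). It was -0.07 without si-SRPX2 replicate 1, -0.10 without si-SRPX2 replicate 3, 0.0093 without si-Control replicate 1 and 0.07 without si-Control replicate 3. The libraries of one group thus differed among themselves by far more than the groups did. A ratio within a library does not depend on the scaling between libraries, and it does not show which of its sides is constant.

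Of all counted reads, the 13 mitochondrial mRNAs took 3.80%, 3.34% and 3.95% after si-SRPX2, against 4.24%, 3.51% and 3.99% after si-Control (means of 3.69 ± 0.319% and 3.91 ± 0.373%, SD, n = 3 each). The si-SRPX2 library differed by -0.446, -0.170 and -0.0391 percentage points in numbers 1, 2 and 3. The mean difference of -0.218 points was -0.0398 without si-SRPX2 replicate 2, -0.0540 without si-Control replicate 1, -0.347 without si-SRPX2 replicate 3 and -0.421 without si-Control replicate 2. Such omissions also leave the replicate numbers unbalanced. The nuclear members took 0.663 ± 0.0508% after si-SRPX2 and 0.706 ± 0.0619% after si-Control (SD, n = 3 each). Within numbers 1, 2 and 3 the nuclear share differed by -0.0991, -0.0306 and -0.000723 percentage points. Neither mean difference exceeded 1 SD of its groups, a spread that includes the difference between numbers. In summed FPKM the mitochondrial share was 16.1 ± 1.14% after si-SRPX2 and 16.97 ± 1.25% after si-Control (SD, n = 3 each), a measure per transcript length.

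**Figure D5:**
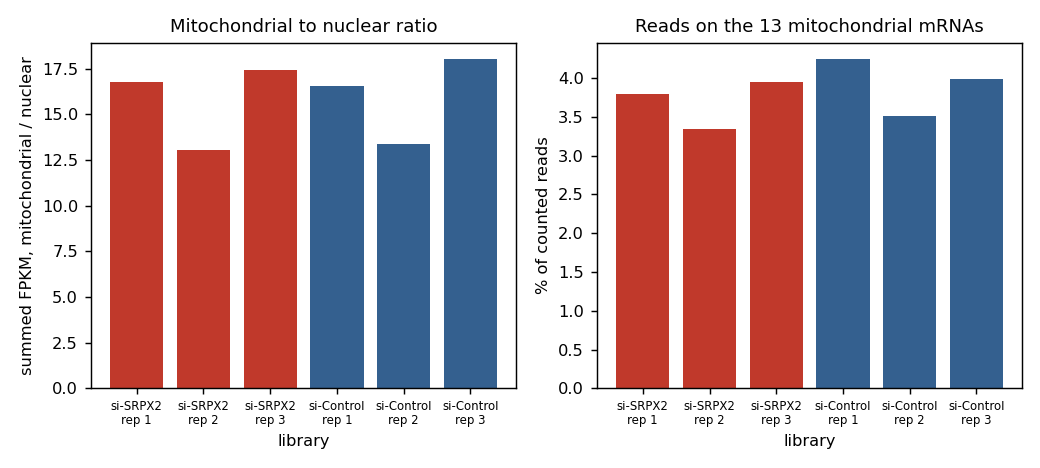
Ratio of the summed FPKM of the 13 mitochondrial to that of the 78 nuclear members (left), and percent of counted reads on the 13 mitochondrial mRNAs (right), in each library. Bars are single libraries, red for si-SRPX2 and blue for si-Control. Replicate 2 has the lowest bar of its group in both panels, at ratios of 13.1 and 13.4 and shares of 3.34% and 3.51%.

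The replicate number accounted for more of the variation than the siRNA in both genomes. In a split of each gene's sum of squares, the number took a median of 81.6% in mitochondrial and 69.4% in nuclear members, beside 84.1% over all genes. The siRNA took 8.97% and 10.1%, beside 4.06%. The number has more levels than the siRNA, which by itself favours a larger share, and the shares were not adjusted for it. MT-ATP8 had 29.3% for the number and 62.2% for the siRNA, whereas MT-ATP6 had 47.8% for the number and 42.2% for the siRNA.

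In the number 2 libraries of both groups the medians of the genomes differed in direction. Against the other 4 libraries all 13 mitochondrial mRNAs were lower, with a median log2 difference of -0.22, between -0.12 (MT-ND2) and -0.45 (MT-ND3). Of the nuclear members 30 of 77 (39.0%) were lower, beside 50.7% of all genes. The median of all 77 was 0.08, beside -0.01 over all genes. They ranged between -0.44 and 0.63, so the ranges of the genomes overlapped. The mitochondrial ribosomal RNAs were lower by more than the mRNAs, with -0.92 for MT-RNR1 and -0.87 for MT-RNR2. ATP5IF1, which inhibits reverse rotation of ATP synthase, was at -0.66 and ATP5MC1 at 0.42. What a replicate number stands for is not given in the sources used here, and its part in these differences was not tested.

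Nuclear copies of mitochondrial genes can take reads from them. Of the 60 such copies listed, 9 passed the filter, and in each library the copies held 2.19% to 2.37% as many reads as the 13 mRNAs. MTND2P28 on chromosome 1, whose sequence was 98.2% identical to MT-ND2, held 16.6% to 17.3% as many reads as MT-ND2. MTATP6P1 (98.5% identical to MT-ATP6) held 12.2% to 13.1%, and MTCO1P12 (98.6% identical to MT-CO1) 1.36% to 1.53%. These shares varied little between libraries. MTATP6P1 had a log2 fold change of -0.17, close to the -0.16 of MT-ATP6, and adding the copies' reads to their mitochondrial gene changed no sign and no call. MTND1P23, a copy of MT-ND1, had 2.26, 1.87 and 1.32 CPM after si-SRPX2, against 3.599, 1.85 and 2.65 CPM after si-Control (-0.57 ± 0.35, SE), and the groups overlapped.

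Of the nuclear members, 22 overlapped another tested gene, 18 of them on the other strand and 8 on the same strand (some of them both). NDUFC2 overlaps a read-through gene that joins it to KCTD14, so its reads are uncertain. The same limit holds for the other same-strand overlaps, in SDHA (38785 bases), NDUFA7 (12608), NDUFA13 (11972), NDUFS3 (8032), NDUFB8 (6138), NDUFB2 (5169) and ATP5F1B (75). The 55 nuclear members without an overlap had a median log2 fold change of -0.10, with 47 below 0.

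Nuclear members with and without a promoter motif had similar medians. Those with the NRF1 motif had a median log2 fold change of -0.11 (n = 16, 12 below 0), and those without it -0.10 (n = 47, 41 below 0). With the ETS motif the median was -0.14 (n = 10, 10 below 0), and without it -0.10 (n = 53). With the YY1 motif it was -0.11 (n = 8, 8 below 0), and without it -0.10 (n = 55). No test was made of these splits.

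Genes that serve the same complexes without being subunits were divided more evenly between lower and higher. Of 49 assembly factors 27 were below 0 and 22 above, with a median of -0.01, and none passed an adjusted p of 0.05. COX11, which helps insert copper into complex IV, had 74.99, 78.7 and 65.2 CPM after si-SRPX2, against 94.3, 85.7 and 69.7 CPM after si-Control (-0.19 ± 0.15, SE). The complex IV assembly factor COX14 was at -0.19 ± 0.18 (SE). The si-SRPX2 library was lower in each number in both genes, and the groups overlapped.

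Of 31 tested genes for mitochondrial DNA and RNA 17 were below 0 and 14 above (median -0.02), with none called. PRORP, the nuclease subunit that cuts the 5′ ends of tRNAs out of the mitochondrial precursors, had 36.4, 34.3 and 35.2 CPM after si-SRPX2, against 57.2, 35.1 and 42.8 CPM after si-Control (-0.35 ± 0.19, SE). POLG2, the accessory subunit of the mitochondrial DNA polymerase, had 12.1, 12.8 and 10.5 CPM after si-SRPX2, against 13.1, 14.1 and 13.6 CPM after si-Control (-0.21 ± 0.16, SE). The POLG2 groups did not overlap in CPM but did in FPKM. Of the 31 genes 2 had groups apart in CPM and lower after si-SRPX2, beside 1.65% of all genes. The ribosomal RNAs MT-RNR1 and MT-RNR2 were at -0.22 ± 0.36 and -0.20 ± 0.33 (SE) without the block, and lower after si-SRPX2 in each number.

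Of 10 transcriptional regulators 8 were tested, 4 below 0 and 4 above, and PPARGC1A (0.0197 FPKM) and PPARGC1B (0.480 FPKM) fell short of the filter. MYC had 157.5, 110.7 and 118.0 CPM after si-SRPX2, against 106.9, 96.2 and 120.5 CPM after si-Control (0.26 ± 0.17, SE). HIF1A had 539, 388 and 525 CPM after si-SRPX2, against 782, 437 and 540 CPM after si-Control (-0.28 ± 0.25, SE). The groups overlapped in both, and number 1 showed the largest difference. MYC was called with the block when both libraries of number 3 were left out (0.39, edgeR adjusted p = 0.0326). That setting was chosen after seeing the data and called 213 of 13317 genes, against 6 with the block and all libraries. It drops the number in which MYC was not higher after si-SRPX2 (-0.03, against 0.56 and 0.20 on the log2 scale). Of 4 tested alternative or regulatory subunits 3 were below 0, among them ATP5IF1 (-0.14 ± 0.27, SE) and COX7A2L (-0.07 ± 0.13, SE), which takes part in joining respiratory complexes.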

How the data were processed

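The authors estimated FPKM with StringTie 2.1.6 and ballgown and deposited these values with read counts per gene for 31348 genes. Besides StringTie, DESeq2 and edgeR appear in the submitters' processing notes. Which aligner, build, annotation and counting step were used is not given in the sources used here. Columns of the authors' own comparison or annotation were not used. Coordinates were matched to GENCODE 29 on GRCh38, where all 91 members were found on the same strand and 37 had the same start and end.

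The deposited counts (63824315 to 75828542 per library) were tested in R 4.3.3 with edgeR 4.0.16 (TMM, glmQLFit, glmQLFTest) over 13317 genes whose mean FPKM reached 0.5, with Benjamini-Hochberg adjustment, as si-SRPX2 over si-Control. Scaled CPM used the TMM factors. SRPX2, at a mean of 0.407 FPKM, came from the fit without a filter. The script was tested on simulated data. Same-numbered libraries had correlated deviations from their group means (0.640, 0.822 and 0.705, against at most 0.117 for other pairs), which is the ground for the replicate block, although what a number stands for is not stated. No 2 libraries agreed within sampling noise (chi-square per gene of at least 17.6).

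The members and lists were chosen with earlier results of these data known. Named were SRPX2, the mitochondrial mRNAs, in each nuclear set the 2 genes with the highest mean FPKM and the gene of smallest p, the c subunit genes, members called or below the filter, and up to 2 genes of smallest p of each other list. NDUFB1, NDUFB5, ATP5F1A, ATP5PD, CYC1, SDHA, SDHC, NDUFV3, NDUFC2, the other genes listed with the block or with same-strand overlaps, and the copies MTND2P28 and MTCO1P12 were named after their values were seen. Alternatives were other scalings and filters, DESeq2 1.42.0, limma 3.58.1 on log2(FPKM + 1) or log2(FPKM + 0.1), the block and leaving out libraries. Those that left out a whole number, combined DESeq2 with the block or added the copies were chosen after seeing the data. A few results are not reported here. Figures were drawn with matplotlib 3.10.9.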

Additional observations from a re-analysis of the deposited data

How the results depend on the processing

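Over all genes 0 passed without the block, 6 with the replicate block, 3 with DESeq2, 89 with DESeq2 and the block, and 15, 79 and 213 with the block when both libraries of number 1, 2 or 3 were left out. Of the members 1 passed without number 2 (MT-ND3) and 1 with DESeq2 and the block (MT-ATP8, log2 fold change -0.24, adjusted p = 0.0451), and 0 under every other alternative. MYC was called without number 3. The difference in the mitochondrial share was -0.83 percentage points in summed FPKM. Other changes were of sign, and their cause was not tested. With the block MT-ND5 came to 0.0094 and COX8A to 0.0051, and with DESeq2 and the block to 0.0106 and 0.0063. With limma on log2(FPKM + 1) and log2(FPKM + 0.1) MT-ND2 came to 0.00804 and 0.00805, MT-ND5 to 0.0327 at both pseudocounts and COX8A to 0.0286 and 0.0289, and with upper quartile scaling MT-ND5 to 0.00011. Without number 1 MT-ND5 came to 0.0815, MT-CO3 to 0.0315, NDUFS5 to 0.0084, COX8A to 0.0840, ATP5IF1 to 0.0256 and COX7A2L to 0.0206. Without number 2 MT-CO3 came to 0.0058, COX8A to 0.0171 and ATP5MC2 to -0.0212. Leaving out single libraries, which leaves the numbers unbalanced, gave ranges that cross 0 for MT-ND6 (-0.27 to 0.017), MT-ND4L (-0.19 to 0.019), MT-ND4 (-0.20 to 0.027), MT-ND1 (-0.16 to 0.035), MT-ND2 (-0.060 to 0.026), MT-ND5 (-0.12 to 0.17), MT-CO1 (-0.17 to 0.081), MT-CO3 (-0.16 to 0.093), SDHB (-0.33 to 0.010), COX8A (-0.16 to 0.079), COX6A1 (-0.22 to 0.020), ATP5F1B (-0.16 to 0.078), ATP5MC1 (-0.28 to 0.041), ATP5MC2 (-0.092 to 0.079), ATP5MC3 (-0.27 to 0.0056), ATP5IF1 (-0.36 to 0.056), COX7A2L (-0.14 to 0.026), MT-RNR2 (-0.45 to 0.025) and MT-RNR1 (-0.50 to 0.026). Of 90 members, 8 nuclear and 2 mitochondrial ones changed sign with limma on FPKM. With 3 libraries a group, the median difference of -0.10 lay within the median standard error of 0.14, so that differences of this size were not detectable in single members without the block.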
